A study of Mus musculus with 12 samples.

Results

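The expression of 40 genes of the cell division cycle was followed in neutrophils sorted from spleen and injured liver. The genes were chosen by name, as cyclins, cyclin-dependent kinases, replication factors and mitotic regulators that mark dividing neutrophil precursors. Each was matched by its Ensembl identifier, so that they make up 40 of the 48709 gene rows of the count table. The samples came from male C57BL/6N mice aged 8 to 10 weeks. Control neutrophils came from the spleens of untreated mice (n = 3 libraries). Liver neutrophils were taken 24 hours (n = 4) and 72 hours (n = 5) after 1 i.p. injection of CCl4 at 1 mL/kg in corn oil. CCl4 is a solvent that liver cells turn into a toxic radical, and it causes acute liver injury. All cells were sorted as Ly6G-high, Ly6C-intermediate, CD11b+ and CD45+ after enrichment on anti-Ly6G beads. The spleens were dissociated mechanically, the livers mechanically and with enzymes, and no injected spleen or uninjured liver was sequenced here. Tissue, injury, injection and dissociation therefore cannot be told apart in a comparison of liver with spleen. The labels do not say whether a library is 1 mouse or a pool, so p-values measure the spread between these libraries.

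Neutrophils are made in the bone marrow from precursors that divide, and division ends before the cell matures. Cyclins bind cyclin-dependent kinases (CDKs) and switch them on, and D cyclins with Cdk4 and Cdk6 act first, then E cyclins with Cdk2, then the A and B cyclins with Cdk1. The MCM proteins open DNA for copying, Aurora and Polo kinases drive mitosis, and kinesins and centromere proteins move the chromosomes. Secondary granule genes such as Ltf, Camp and Ngp are expressed later in that series, around the point where division stops.

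The libraries held 1267089 to 3017403 counts on genes, which was 2.71% to 3.18% of the uniquely aligned reads. 72 h replicates 2 and 3 stood apart with 1.91% and 1.98% of reads unaligned, against 49.6% to 50.7% in the 10 other libraries. Spleen replicate 3 stood apart from the other spleens, and the results that rest on it are given without it. The sort was checked against markers of other cells. Some markers were at 0 throughout and others were not. Erythroid Hba-a1, Hbb-bs and Slc4a1, Kupffer cell Clec4f, macrophage C1qa, T cell Cd3e and Cd4, and endothelial Cdh5 and Kdr were at 0 in every library. B cell Cd79b and Ms4a1 had 0 or 1 count in each library. Hepatocyte Alb reached 33 counts in 72 h replicate 3 and 13 in 72 h replicate 2, and at most 2 elsewhere. B cell Cd79a had 100 to 167 counts in spleen, 36 to 102 at 24 h and 36 to 77 at 72 h. B cell Ighm had 9 to 34 counts in spleen, 0 to 6 at 24 h and 11 to 69 at 72 h, so that it was low at 24 h as the cell cycle genes described below were. T cell Cd3d had 2 to 17 counts in the libraries. Of the liver endothelial genes, Clec4g had 45 to 203 counts and Stab2 3 to 27, and the 5 endothelial genes summed to 27.4 to 69.8 normalized CPM in spleen, 32.2 to 52.5 at 24 h and 42.4 to 64.5 at 72 h. The 6 macrophage genes summed to 79.4 to 119 normalized CPM in spleen, 126 to 179 at 24 h and 117 to 180 at 72 h, nearly all of it Csf1r, with 154 to 561 counts. The part of these cells in the results was not tested. All 10 mature neutrophil genes were present in every library, the least counted being Ly6g, the marker of the sort. Ly6g had 80, 104 and 29 counts in the spleens, 3 to 42 at 24 h and 3 to 18 at 72 h, and it was called lower at 72 h, by edgeR as defined below (log2 fold change -2.69, SE 0.64, edgeR adjusted p = 0.0129). S100a8 and S100a9 were called lower at both times. Thus 2 of the 10 genes were called lower at 24 h (20%), against 4.4% of all tested genes. At 72 h it was 3 of 10 (30%), against 2.71%. The 10 genes summed to 7388, 7380 and 2285 normalized CPM in the spleens, 1353 to 3023 at 24 h and 2521 to 3242 at 72 h, and the part of this shift in the cell cycle results was not tested.

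Whether the spleen libraries held immature neutrophils was checked with granule genes. The primary granule genes that mark early precursors were at 0 or low, with Elane and Ms4a3 at 0 everywhere and Mpo at 0 in all libraries but 1 with 2 counts. Fcnb, a ficolin of early precursors, had 14, 13 and 0 counts in the spleens and 0 in all 9 liver libraries. Prtn3, a protease of the same granules, had 1, 3 and 8 counts in the spleens, 17, 0, 5 and 8 at 24 h, and 2, 14, 4, 0 and 0 at 72 h, and it shares 159 exon bases with the opposite-strand gene Plppr3. Secondary granule and immature neutrophil genes were present and are described last. These counts do not show whether dividing stages were present, since a low count is not read here as a low RNA level. The 40 genes are therefore called cell cycle genes and not genes of immature neutrophils.

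Most of the cell cycle genes had few counts. Every gene had at least 1 count in a spleen library, but 15 of 40 were at 0 in all 4 libraries at 24 h and 12 of 40 at 0 in all 5 at 72 h. A total of 11 had counts in spleen and none in any liver library. These were the mitotic cyclin Ccnb1 and its kinase Cdk1, the helicase subunits Mcm3 and Mcm5, thymidylate synthase Tyms, the chromosomal passenger Birc5, the checkpoint kinase Bub1, the centromere proteins Cenpe and Cenpf, the spindle factor Tpx2 and the microtubule destabilizer Stmn1. Their highest spleen count was 7, for Stmn1. The spleen libraries had counts on 35, 36 and 29 of the 40 genes. The 24 h libraries had counts on 21, 18, 19 and 21, and the 72 h libraries on 19, 19, 22, 22 and 21. Spleen replicate 1, with 35 genes present, held 1744084 counts and each 24 h library held more. After TMM scaling, however, 1 count was worth 0.464 normalized CPM in spleen replicate 1 and 0.60 to 0.73 in the 24 h libraries, and the part of depth in these counts of genes was not tested.

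**Figure D1:**
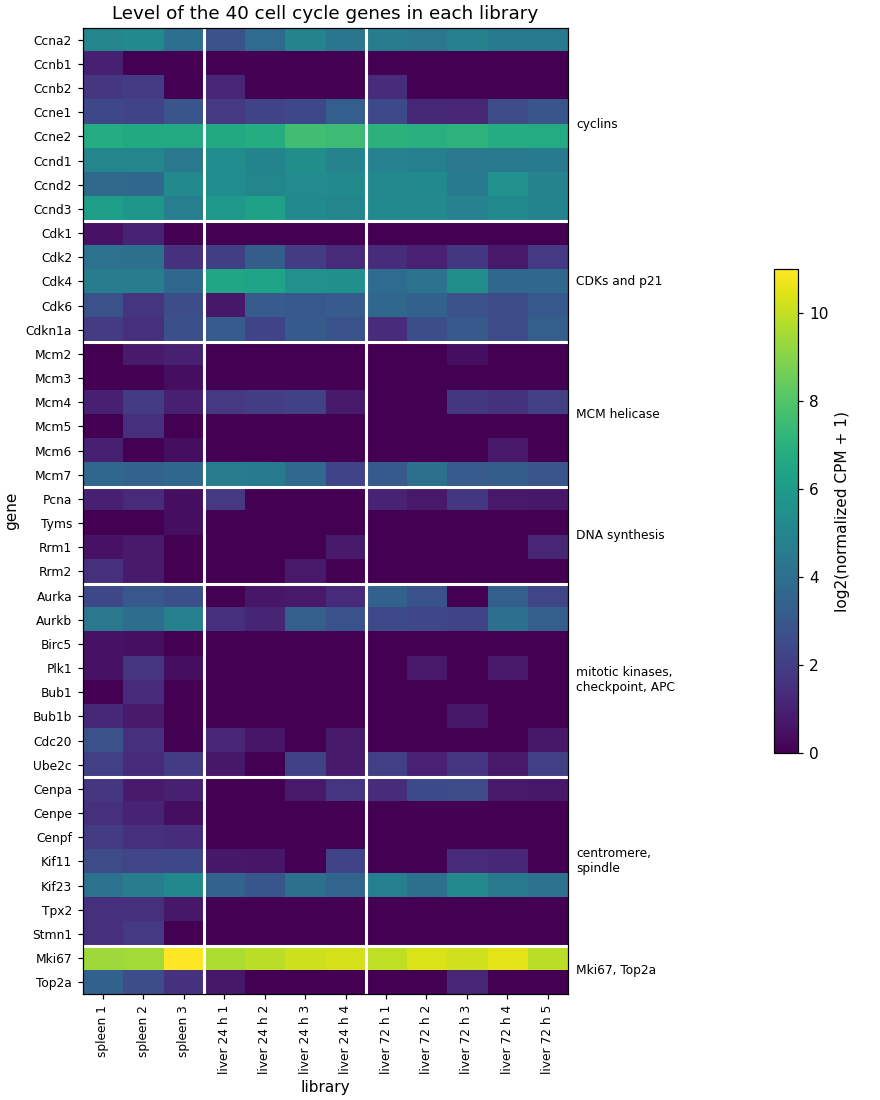
Level of the 40 cell cycle genes (rows, by role) in the 12 libraries (columns), as log2(normalized CPM + 1) in colour. Mki67 is bright throughout, and most genes of mitosis are dark in the liver columns, where 18 to 22 of the 40 genes have any count against 29 to 36 in the spleens.

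The count table limits which of these genes can be read alone. For 13 of the 40, annotated exons share bases with exons of a gene on the opposite strand. Among the 23 that were tested this held for 11, against 39.9% of all tested genes. The library kit keeps the strand of the RNA, but the strand setting of the read counting is not given in the sources used here. These counts can therefore hold reads of both genes. The setting is open for every other gene too, and only 2.71% to 3.18% of uniquely aligned reads fell on genes. A low count is therefore not read here as a low RNA level, and the part of the setting in the counts was not tested. Of the 10 genes with more than 3 counts in every library, 7 were of this kind. These were Ccna2 (with Exosc9), Ccne2 (with Ints8), Ccnd1, Ccnd2, Ccnd3 (with Bysl), Cdk4 (with Tspan31) and Mcm7 (with Ap4m1 and Cops6). Only Ccne1, Kif23 and Mki67 had more than 3 counts everywhere and no such partner.

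Mki67 encodes Ki-67, a coat protein of mitotic chromosomes and the common mark of dividing cells. It took 62.4% to 85.9% of all counts on the 40 genes in each library. The gene lies on the minus strand of chr7:135689784-135716361 (GRCm38, ENSMUSG00000031004.8), and no annotated exon on the opposite strand overlaps its exons. The spleens had 1454, 1937 and 6244 counts. The 24 h libraries had 1277, 1564, 1604 and 1732 counts, and the 72 h libraries had 1830, 3887, 3771, 2138 and 1451. On the scale of normalized CPM (CPM after TMM scaling, where CPM divides a count by the size of its library), the spleens were at 674, 702 and 2008, the 24 h libraries at 805 to 1263 and the 72 h libraries at 942 to 1485. The groups overlapped, because spleen replicate 3 was above every liver library and the other spleens were below them. The fitted change was -0.12 on the log2 scale at 24 h (SE 0.30, edgeR adjusted p = 0.834) and 0.07 at 72 h (SE 0.29, edgeR adjusted p = 0.951). Without spleen replicate 3 it was 0.59 at 24 h (edgeR adjusted p = 0.119) and 0.78 at 72 h, where Mki67 was then called higher (edgeR adjusted p = 0.0465). The sign at 24 h thus turned when spleen replicate 3 was set aside. At 72 h the sign stayed positive without that library, but the change was -0.19 when spleen replicate 1 was set aside instead. No direction is therefore given for Mki67 at either time. Between 72 h and 24 h liver the fitted change was 0.20 (SE 0.26, edgeR adjusted p = 0.719).

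The level of Mki67 stood far from those of the other genes. Per kilobase of exon, its mean level was 112 normalized CPM in spleen, 103 at 24 h and 118 at 72 h. Top2a, the topoisomerase that untangles DNA before chromosomes separate, was at 0.619, 0.0175 and 0.0275 normalized CPM per kilobase in the same groups. The second highest level per kilobase was that of the cyclin gene Ccne2, at 30.4, 42.5 and 34.8, where reads of Ints8 can be included.

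The sum over all 40 genes therefore followed Mki67. It was 1081, 1079 and 2337 normalized CPM in the spleens, 1195, 1341, 1592 and 1667 at 24 h, and 1339, 1661, 1526, 1810 and 1235 at 72 h. The means were 1499 ± 726 (SD, n = 3), 1449 ± 219 (SD, n = 4) and 1514 ± 233 (SD, n = 5), and the groups overlapped. Scaling decided this. With no TMM factor the sums were 1291 to 2726 CPM in spleen, 939 to 1264 at 24 h and 1275 to 2056 at 72 h, so that every 24 h library was below all others. In raw counts the sums were 2331 to 7269 in spleen, 1895 to 2285 at 24 h and 1904 to 4932 at 72 h.

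A different picture was seen in the 26 genes with no opposite-strand partner once Mki67 was set aside, a choice made after its counts were seen. Their raw counts summed to 173, 224 and 266 in the spleens, 35, 26, 49 and 47 at 24 h, and 90, 93, 174, 80 and 65 at 72 h. As normalized CPM these were 80.3, 81.2 and 85.5 in spleen, 22.1, 15.6, 34.7 and 34.3 at 24 h, and 48.8, 32.1, 53.9, 55.6 and 42.2 at 72 h. All liver libraries were below all spleens, and the 24 h and 72 h ranges met at 32.1 to 34.7. The spleen mean was 3.09 times the 24 h mean and 1.77 times the 72 h mean. With no TMM factor all liver libraries were again below all spleens and the liver groups no longer met, at 97.1 to 99.7 CPM in spleen, 13.4 to 27.5 at 24 h and 33.0 to 63.1 at 72 h. Aurkb and Kif23 made up 45.1% to 73.0% of these counts. The remaining 24 genes without them were at 44.1, 42.4 and 24.8 normalized CPM in spleen, 7.80 to 17.5 at 24 h and 12.4 to 19.5 at 72 h. In bulk libraries, fewer cells expressing a gene and less RNA per cell cannot be told apart.

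**Figure D2:**
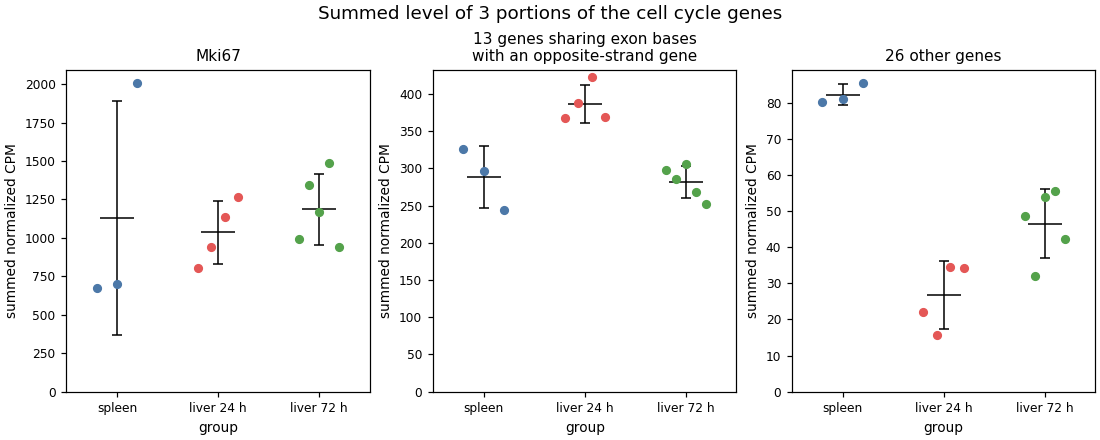
Summed normalized CPM of Mki67, of the 13 genes that share exon bases with an opposite-strand gene, and of the 26 other genes, by group. Points are libraries, long dashes group means and bars 1 SD. In the 26 other genes the spleens sit at 80.3 to 85.5 and all liver libraries at 15.6 to 55.6, while Mki67 overlaps between groups.

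The 13 genes with an opposite-strand partner showed no such drop. They summed to 327, 296 and 244 normalized CPM in spleen, 368 to 423 at 24 h and 252 to 306 at 72 h. The 24 h libraries were all above the spleens, and also above all 72 h libraries. Scaling bears on this, since with no TMM factor the same sums overlapped, at 285 to 404 CPM in spleen and 273 to 336 at 24 h.

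Each gene with enough counts was tested alone. A gene was tested where at least 3 libraries had over 1 CPM, which 23 of the 40 genes met. It was called where edgeR's adjusted p was below 0.05 and the absolute log2 fold change was at least 0.5. Counts across the 17 genes not tested were low, with 96 summed counts in spleen, 6 at 24 h and 10 at 72 h, and none above 2 counts in a liver library. Of the tested genes, Top2a, Cenpf and Ccnb2 were over 1 CPM in fewer than 3 liver libraries. They passed the filter through the spleens, where they are high, so the counts and medians over the 23 genes are given as descriptions.

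At 24 h, 3 of the 23 tested genes were called against spleen, against 9.75% of all tested genes. Cdk4 was higher, against 5.35% of all tested genes called higher, and Aurkb and Top2a were lower, against 4.4% called lower. At 72 h, 3 of 23 were called, against 5.33% of all tested genes. Cdk2, Cenpf and Top2a were each lower, against 2.71% of all tested genes called lower, and no member was higher, against 2.63%. Between 72 h and 24 h liver, 1 of 23 was called, against 4.49% of all tested genes. This was Cdk4, lower at 72 h, against 2.84% of all tested genes called lower and 1.65% called higher. The first 2 comparisons share the 3 spleen libraries. The median log2 fold change of the 23 genes was -0.42 at 24 h, -0.23 at 72 h and -0.11 between the liver groups, where the medians of all tested genes were -0.23, -0.02 and 0.18. Without spleen replicate 1, the members called fell to 1 at 24 h and 0 at 72 h. Of all genes tested in that fit, 4.74% and 2.65% were called. Members called were also 0 at 72 h without spleen replicate 2 or without 72 h replicate 2, against 2.57% and 3.7% of all genes. Top2a alone was called at 72 h without both 72 h replicates 2 and 3, against 2.38% of all genes. With the DESeq2 test 5, 2 and 3 of the 23 genes were called in the 3 comparisons, against 12.6%, 6.95% and 7.9% of all tested genes. At an unadjusted edgeR p under 0.05 there were 8, 5 and 4 of 23, against 26.2%, 17.1% and 20.9% of all tested genes. The 20 genes not called at 24 h had edgeR adjusted p-values from 0.0524 to 0.994.

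Groups that did not overlap in normalized CPM were counted as well. At 24 h, 6 of the 23 tested genes were lower in every liver library than in every spleen, against 13% of all tested genes, and 1 was higher, against 9.76%. The 6 were Top2a, Cenpf, Kif11, Kif23, Aurka and Aurkb, and the 1 was Cdk4. At 72 h, Top2a, Cenpf and Kif11 were lower in every liver library, 3 of 23 against 6.37% of all tested genes, and 0 were higher, against 5.59%. Between the liver groups Cdk4 and the D cyclin Ccnd1 were lower at 72 h in every library, 2 of 23 against 5.02% of all tested genes, and 0 were higher, against 4.49%. With no TMM factor the count was the same at 24 h, Aurkb joined the 3 genes at 72 h, and between the liver groups Kif23 and Mki67 were higher at 72 h in every library and 0 were lower.

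**Figure D3:**
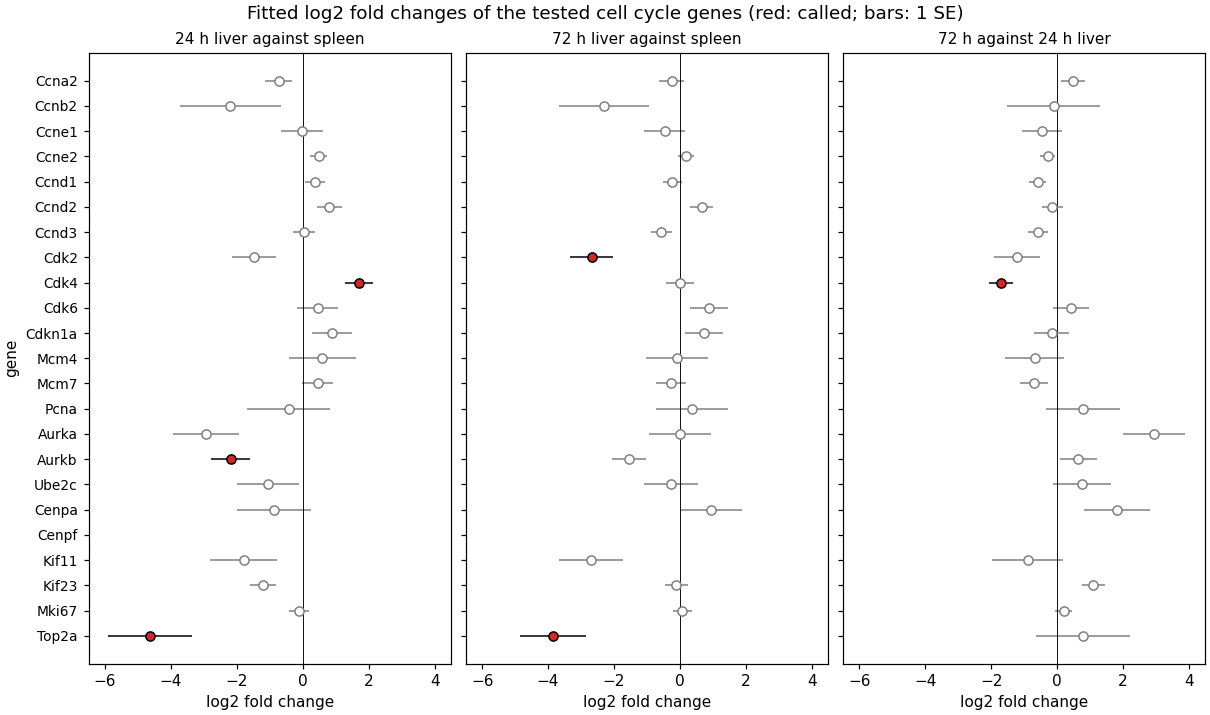
Fitted log2 fold changes (points) with 1 standard error (bars) of the tested genes in the 3 comparisons. Called genes are red, and Cenpf, at 0 in all liver libraries, has no fitted point. Top2a lies at -4.63 and -3.84 against spleen, Aurkb at -2.19 at 24 h, Cdk2 at -2.68 at 72 h, and Cdk4 at 1.70 at 24 h and -1.71 between the liver groups.

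Among the genes of chromosome structure, Top2a was lower at both times (minus strand of chr11:98992943-99024189, ENSMUSG00000020914.17). It had 21, 14 and 6 counts in the spleens, 1, 0, 0 and 0 at 24 h, and 0, 0, 4, 0 and 0 at 72 h. All liver libraries were below all spleens. Top2a fell by 4.63 on the log2 scale at 24 h (SE 1.27, edgeR adjusted p = 0.0226) and fell by 3.84 at 72 h (SE 1.01, edgeR adjusted p = 0.0249). These calls rested on few counts, in a gene that passed the filter through the spleens, and Top2a was also called at both times with no filter. Without spleen replicate 1, edgeR adjusted p was 0.136 at 24 h and 0.220 at 72 h, and 5 of 12 fits that each left out 1 library lost the call at 24 h and 4 of 12 at 72 h. The call at 24 h was lost without spleen replicate 1 or 2 or 24 h replicate 2, 3 or 4, and that at 72 h without spleen replicate 1 or 2 or 72 h replicate 1 or 2.

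Among the centromere and spindle genes, Cenpf was seen in spleen alone (minus strand of chr1:189640606-189688086, ENSMUSG00000026605.14). Cenpf encodes a large protein of the kinetochore, where chromosomes attach to the spindle. It had 6, 5 and 5 counts in the spleens and 0 in all 9 liver libraries. At 72 h it was called lower (edgeR adjusted p = 0.0487), and with a floor of 3 counts over the group it was at least 7.28-fold lower. The floor bounds the liver count alone and takes the few spleen counts as exact. Cenpf passed the filter through the spleens only, so this call is not independent of the filter. It was also called at 72 h with no filter. At 24 h the bound was at least 4.01-fold lower, but the gene was not called (edgeR adjusted p = 0.0712). The 72 h call was lost in 6 of the 9 fits with 1 library left out in which Cenpf was still tested, namely without 24 h replicate 4 or any one of the 72 h libraries, with edgeR adjusted p up to 0.101.

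Kif11, a kinesin that pushes the spindle poles apart, had 10, 11 and 13 counts in the spleens (plus strand of chr19:37376403-37421859, ENSMUSG00000012443.3). It had 1, 1, 0 and 5 counts at 24 h and 0, 0, 5, 2 and 0 at 72 h. Every liver library was below every spleen in normalized CPM, although 24 h replicate 4 reached 3.65 against 3.99 in the lowest spleen. It was not called at 72 h by edgeR, with a log2 fold change of -2.69 (SE 0.97, edgeR adjusted p = 0.126), and limma-voom called it lower (adjusted p = 0.0192).

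Kif23, a kinesin of the midzone needed for the final separation of daughter cells, had 35, 66 and 107 counts in the spleens (minus strand of chr9:61915905-61946774, ENSMUSG00000032254.9). The 24 h libraries had 16, 11, 22 and 15 counts, and the 72 h libraries 48, 45, 115, 30 and 26. The level was 24.9 ± 9.12 normalized CPM in spleen (SD, n = 3), 10.8 ± 3.69 at 24 h (SD, n = 4) and 23.0 ± 8.15 at 72 h (SD, n = 5). The 24 h libraries were all below the spleens, and the 72 h libraries overlapped with both groups. At 24 h the log2 fold change was -1.21 (SE 0.39, edgeR adjusted p = 0.0524). From 24 h to 72 h it was 1.10 (SE 0.36, edgeR adjusted p = 0.0799), and neither passed the threshold in edgeR. Both passed in DESeq2, at adjusted p = 0.0346 and 0.0432. Without spleen replicate 3 the log2 fold change at 24 h was -0.91. With 1 library left out, edgeR adjusted p ran from 0.0390 to 0.180 at 24 h, and 2 of 12 fits called Kif23. From 24 h to 72 h it ran from 0.0589 to 0.220, and 0 fits called the gene.

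Of the Aurora kinases, Aurkb was called lower at 24 h and Aurka was not. Aurkb, the kinase of the chromosomal passenger complex, had 43, 41 and 82 counts in the spleens (plus strand of chr11:69045647-69051664, ENSMUSG00000020897.12). It had 3, 2, 13 and 8 counts at 24 h and 8, 12, 12, 22 and 14 at 72 h. In normalized CPM the spleens were at 20.4 ± 5.77 (SD, n = 3), the 24 h libraries at 4.53 ± 3.72 (SD, n = 4) and the 72 h libraries at 7.31 ± 4.96 (SD, n = 5). Aurkb fell by 2.19 on the log2 scale at 24 h (SE 0.58, edgeR adjusted p = 0.0187). At 72 h, 1 library reached 15.3 against 14.9 in the lowest spleen, and the log2 fold change of -1.54 did not pass (SE 0.51, edgeR adjusted p = 0.0885), although it did in limma-voom (adjusted p = 0.0197). The 24 h call was lost in 4 of 12 fits with 1 library left out, those without spleen replicate 1 or 3 or 24 h replicate 1 or 2, at edgeR adjusted p of 0.0550 to 0.0582.

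Aurka, which acts at the spindle poles, had 9, 19 and 17 counts in the spleens (minus strand of chr2:172356190-172370535, ENSMUSG00000027496.15). It had 0, 1, 1 and 2 counts at 24 h and 18, 17, 0, 13 and 6 at 72 h. The 24 h libraries were all below the spleens, and the 72 h libraries spread around them, from 0 to 9.76 normalized CPM against 4.18 to 6.89 in spleen. The log2 fold change was -2.94 at 24 h (SE 0.99, edgeR adjusted p = 0.0623) and 2.94 from 24 h to 72 h (SE 0.94, edgeR adjusted p = 0.0744). Both missed the threshold in edgeR. DESeq2 called both, at adjusted p = 0.0428 and 0.0311, and so did edgeR without 72 h replicates 2 and 3, at adjusted p = 0.0180 and 0.0292.

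**Figure D4:**
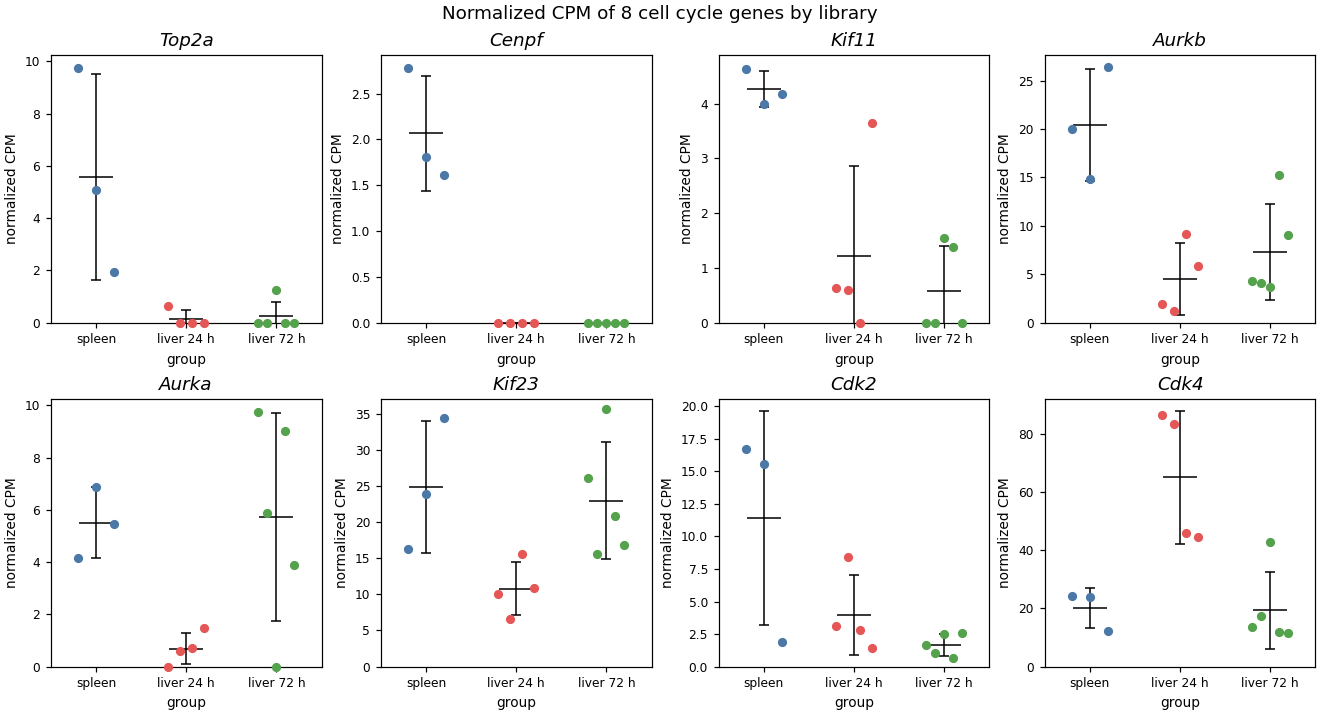
Normalized CPM of 8 cell cycle genes in the 12 libraries, with group means (dashes) and 1 SD (bars, cut off at 0). Top2a, Cenpf and Kif11 are low in both liver groups, Aurka and Kif23 are low at 24 h with 72 h libraries reaching spleen levels, and Cdk4 is high at 24 h, from 44.5 to 86.4.

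Among the kinases that pair with cyclins, Cdk4 rose at 24 h (plus strand of chr10:127063534-127067920, ENSMUSG00000006728.12). Cdk4 starts the passage from G1 towards DNA copying. It had 52, 66 and 38 counts in the spleens, 137, 139, 65 and 61 at 24 h, and 25, 50, 138, 17 and 18 at 72 h. In normalized CPM these were 20.1 ± 6.82 in spleen (SD, n = 3), 65.1 ± 22.9 at 24 h (SD, n = 4) and 19.4 ± 13.2 at 72 h (SD, n = 5). All 24 h libraries were above all others, the nearest being 72 h replicate 3 at 42.7 against 44.5. With no TMM factor they were still above the spleens, at 32.9 to 71.7 against 14.3 to 29.9 CPM, but overlapped with the 72 h libraries, which reached 45.8. The log2 fold change at 24 h was 1.70 (SE 0.43, edgeR adjusted p = 0.0143). From 24 h to 72 h Cdk4 fell by 1.71 (SE 0.37, edgeR adjusted p = 0.0116). The first call was lost without spleen replicate 3 (edgeR adjusted p = 0.0520) and the second without 24 h replicate 1 (edgeR adjusted p = 0.0564). Cdk4 shares 641 exon bases with Tspan31, and how many of its reads came from that gene was not tested.

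Cdk2, the partner of the E and A cyclins, had 36, 43 and 6 counts in the spleens (minus strand of chr10:128697939-128705031, ENSMUSG00000025358.15). It had 5, 14, 4 and 2 counts at 24 h and 3, 3, 8, 1 and 4 at 72 h. At 24 h it was not called, with a log2 fold change of -1.47 (SE 0.67, edgeR adjusted p = 0.168), but it was called lower without spleen replicate 3, at -1.98 (edgeR adjusted p = 0.0392). It fell by 2.68 on the log2 scale at 72 h (SE 0.66, edgeR adjusted p = 0.0159). The groups overlapped, since spleen replicate 3, at 1.93 normalized CPM, lay inside the 72 h range of 0.695 to 2.60. The call was lost without spleen replicate 1 (edgeR adjusted p = 0.130), spleen replicate 2 (0.130) or 72 h replicate 2 (0.0535), and in limma-voom (0.123). Cdk2 shares 34 exon bases with Pmel. Cdk6, the second partner of the D cyclins, had 6 to 16 counts in spleen, 1 to 13 at 24 h and 7 to 28 at 72 h. The CDK inhibitor p21, Cdkn1a, had 5 to 17, 6 to 13 and 3 to 24 counts.

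None of the 7 tested cyclins was called in any comparison by edgeR, DESeq2 or limma-voom on all 12 libraries, although Ccnd2 was called higher at both times without spleen replicate 3. At an unadjusted edgeR p under 0.05 there was 1 at 24 h, 0 at 72 h and 1 between the liver groups. Of all tested genes, 26.2%, 17.1% and 20.9% reached that threshold. The most counted were Ccne2, with 240 to 328 counts in spleen, 160 to 279 at 24 h and 158 to 446 at 72 h, and the D cyclin Ccnd3, with 79 to 154, 44 to 128 and 47 to 102. Ccna2, the cyclin of DNA copying, had 48 to 99 counts in spleen, 9 to 41 at 24 h and 33 to 90 at 72 h. The B cyclins, which start mitosis, had few counts. Ccnb2 had 5, 8 and 0 counts in the spleens, 2 counts in 1 library at 24 h and 3 counts in 1 library at 72 h.

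None of the replication genes was called. Mcm7, which shares exon bases with 2 genes, had 25, 28 and 38 counts in spleen, 5 to 37 at 24 h and 10 to 46 at 72 h. Mcm4, a helicase subunit with no such partner, had at most 8 counts in any library. Pcna, the clamp that holds the polymerase on DNA, also had at most 8. Rrm2, the regulated subunit of the enzyme that makes deoxynucleotides, had 4, 2 and 0 counts in the spleens and 1 count over all liver libraries. For the 3 tested genes of these classes, the count at an unadjusted p under 0.05 was 0 in edgeR in each comparison. Of all tested genes, 26.2%, 17.1% and 20.9% reached that threshold. DESeq2 and limma-voom called 0 of the 3 as well.

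The promoters of some members hold motifs that are common in cell cycle genes. In textbook cell cycle promoters, the CCAAT box binds the factor NF-Y, and TTTGAA is the core of the CHR element, read by complexes that hold these genes off in cells that have left the cycle. The 250 bases before the RefSeq start (GRCm38.p6) were listed for 32 of the 40 genes, in 35 windows. CCAAT, read on both strands, was in 77.1% of these windows and in 33.8% of the 32851 windows of all genes. TTTGAA, read on both strands, was in 22.9% and 16.0%. Top2a, Cenpf and Kif11 are shown because all their liver libraries were below all spleens, and Mki67 because it was not. Capitals mark CCAAT or TTTGAA on either strand.
Top2a, chr11:99024190-99024439, minus strand: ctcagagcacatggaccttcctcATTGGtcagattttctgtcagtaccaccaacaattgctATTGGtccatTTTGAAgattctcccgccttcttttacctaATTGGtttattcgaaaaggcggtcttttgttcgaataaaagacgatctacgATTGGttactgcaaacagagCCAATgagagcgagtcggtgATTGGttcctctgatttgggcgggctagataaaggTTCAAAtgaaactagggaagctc
Cenpf, chr1:189688087-189688336, minus strand: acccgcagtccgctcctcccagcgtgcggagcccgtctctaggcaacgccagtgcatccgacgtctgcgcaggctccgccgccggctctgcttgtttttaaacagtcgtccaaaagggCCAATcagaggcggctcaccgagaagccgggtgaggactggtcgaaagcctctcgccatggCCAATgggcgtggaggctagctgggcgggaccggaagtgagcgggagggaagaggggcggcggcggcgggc
Kif11, chr19:37376132-37376381, plus strand: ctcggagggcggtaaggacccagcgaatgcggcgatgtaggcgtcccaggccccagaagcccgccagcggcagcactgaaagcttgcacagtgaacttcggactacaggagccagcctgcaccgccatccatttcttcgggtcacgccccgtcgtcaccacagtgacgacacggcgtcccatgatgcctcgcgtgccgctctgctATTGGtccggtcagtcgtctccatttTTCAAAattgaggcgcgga
Mki67, chr7:135716380-135716629, minus strand: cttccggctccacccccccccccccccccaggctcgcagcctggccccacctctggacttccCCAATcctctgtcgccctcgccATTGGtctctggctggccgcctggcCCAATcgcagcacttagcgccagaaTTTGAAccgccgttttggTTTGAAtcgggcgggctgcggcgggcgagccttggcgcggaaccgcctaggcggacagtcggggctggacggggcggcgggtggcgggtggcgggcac
Top2a held 6 CCAAT and 2 TTTGAA matches, Cenpf 2 and 0, Kif11 1 and 1, and Mki67 3 and 2. Both motifs thus stood in the window of Mki67 as in those of Top2a and Kif11, and a match is a description of letters and not a site in use.

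Other genes of the cycle were looked at from a list of 59, of which 32 were tested. E2f1, E2f3, Cdc45, Lig1, Cdc25a, Ndc80, Anln and Racgap1 were over 1 CPM in fewer than 3 liver libraries. They passed the filter only with the spleens, so the shares and medians of the 32 genes are given as descriptions. At 24 h, 6 of 32 were called (18.8%), against 9.75% of all tested genes, 5 lower and 1 higher. Tk1, the thymidine kinase of the salvage route, had 435, 539 and 875 counts in the spleens, 108 to 192 at 24 h and 181 to 358 at 72 h. It fell by 1.23 on the log2 scale at 24 h (SE 0.27, edgeR adjusted p = 0.00448) and fell by 0.90 at 72 h (SE 0.25, edgeR adjusted p = 0.0340), and all liver libraries were below all spleens. E2f2, a transcription factor of the G1 to S step, fell by 1.70 at 24 h (SE 0.41, edgeR adjusted p = 0.00974). Its partner Tfdp1 fell by 1.90 at 24 h (SE 0.52, edgeR adjusted p = 0.0235) and fell by 1.74 at 72 h (SE 0.48, edgeR adjusted p = 0.0330), with 1 spleen inside the liver range. The phosphatase Cdc25a and the ligase Lig1 were at 0 in all 24 h libraries. By the floor used for Cenpf, which takes the spleen counts as exact, Cdc25a was at least 7.02-fold lower than in spleen (edgeR adjusted p = 0.0320). Lig1 was at least 4.01-fold lower by that floor (edgeR adjusted p = 0.0472). Both genes passed the filter through the spleens, so these calls are not independent of it. Tk1 shares 83 exon bases with Afmid, and Lig1 shares 247 with Zswim9. The gene called higher, Gins2, shares 2758 exon bases with Gse1. At 72 h, 2 of 32 were called (6.25%), Tk1 and Tfdp1, near the 5.33% of all tested genes. Between the liver groups 0 were called by edgeR, DESeq2 or limma-voom, where edgeR called 4.49% of all tested genes. An unadjusted edgeR p under 0.05 was reached by 0 of the 32, against 20.9% of all tested genes. The median log2 fold change of the 32 genes was -1.07 at 24 h, -0.63 at 72 h and 0.34 between the liver groups.

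Of 15 genes listed as brakes of the cycle, 12 were tested. The list includes Mdm2, an inhibitor of p53, so not every gene on it slows the cycle. Cdkn2c and Trp53 were over 1 CPM in fewer than 3 liver libraries and passed the filter only with the spleens. At 24 h 1 of 12 was called (8.33%), near the 9.75% of all tested genes, at 72 h 3 (25.0%) against 5.33%, and between the liver groups 2 (16.7%) against 4.49%. All were higher, while 5 of the 12 were fitted below 0 in each comparison with spleen, where the medians were 0.03 and 0.34. Btg2, an antiproliferative gene, had 74, 93 and 154 counts in the spleens, 151 to 180 at 24 h and 224 to 1254 at 72 h. It was higher by 1.53 on the log2 scale at 24 h (SE 0.31, edgeR adjusted p = 0.00281) and by 2.59 at 72 h (SE 0.31, edgeR adjusted p = 1.58e-05). At 72 h its relative Btg1 was higher by 0.98 (SE 0.21, edgeR adjusted p = 0.00509) and the stress gene Gadd45b by 2.24 (SE 0.54, edgeR adjusted p = 0.0130). Btg1 and Btg2 were also higher at 72 h than at 24 h, by 0.66 and 1.06. The other 11 tested genes at 24 h and 9 at 72 h were not called.

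A list of 9 secondary granule and immature neutrophil genes was lower in liver, as the 26 cell cycle genes were in sum. The list also holds genes such as the transcription factor Cebpe, and its genes are called granule genes below for short. Spleen replicate 3 was far below the other spleens in the granule genes and level with them in the sum of the 26. Of the 9 genes, 8 were called lower at 24 h, against 4.4% of all tested genes, and 9 at 72 h, against 2.71%. Camp was over 1 CPM in fewer than 3 liver libraries, so its 72 h call is not independent of the filter. DESeq2 called 6 and limma-voom 7 at 24 h, and both called 9 at 72 h. Their summed level was 5662, 5586 and 976 normalized CPM in the spleens, 127 to 582 at 24 h and 127 to 371 at 72 h. Spleen replicate 3 thus had the lowest granule sum of the 3 spleens and the highest sum of the 26 cell cycle genes, at 85.5. Its level sum rested on Aurkb and Kif23, which made up 71.1% of its 26-gene counts, and without them it was at 24.8 normalized CPM against 44.1 and 42.4 in the other spleens. It also had the fewest counts on the 15 untested genes with no opposite-strand partner, 9 against 26 and 36 in the other spleens. At 72 h the granule sum was not above that at 24 h, while the 26 cell cycle genes had means of 46.5 at 72 h and 26.7 at 24 h. The part of granule-rich cells in the cell cycle result was not tested.

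**Figure D5:**
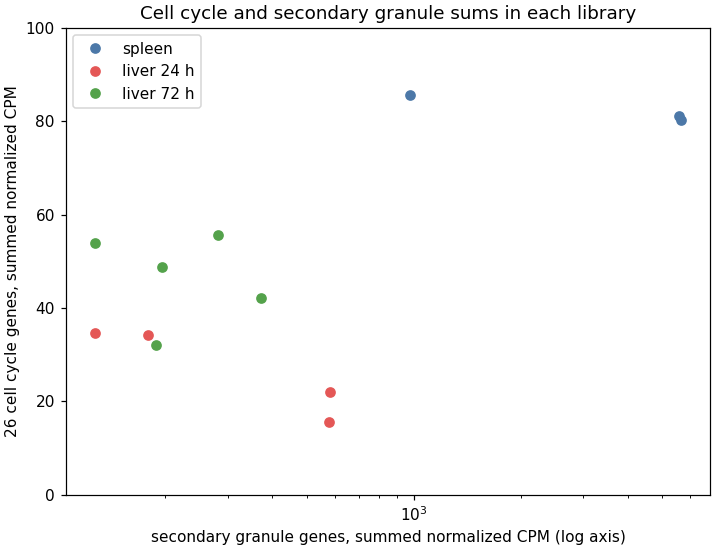
Summed normalized CPM of the 26 cell cycle genes against that of 9 secondary granule and immature neutrophil genes (log axis), 1 point a library. The 3 spleens lie at 80.3 to 85.5 on the vertical axis although their granule sums run from 976 to 5662. Aurkb and Kif23 make up 71.1% of the counts behind the spleen at 976, and all liver libraries lie below and to the left.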

How the data were processed

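RNA of FACS-sorted neutrophils was sequenced from 12 libraries, made with a stranded NEB mRNA kit. The authors aligned reads with STAR 2.7.9a to GRCm38 (submitters' processing notes) and deposited raw HTSeq counts per gene, whose strand option is not given in the sources used here. The 5 summary rows, which name no gene, entered neither scaling nor tests, and genes held 2.71% to 3.18% of uniquely aligned reads. Symbols, positions and exon overlaps came from GENCODE M21 by Ensembl identifier (48349 of 48709 rows matched).

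Genes with over 1 CPM in at least 3 libraries (12488) were scaled by TMM and tested in 1 quasi-likelihood fit of all 12 libraries with edgeR 4.0.16 in R 4.3.3, with Benjamini-Hochberg adjustment over all tested genes. Normalized CPM divides a count by the TMM-scaled library size of tested genes, and 1 count was worth 0.310 to 0.729 normalized CPM. Alternatives used DESeq2 1.42.0, limma-voom 3.58.1, other scalings and filters, a replicate block and each library left out. The 40 genes and the lists were chosen with earlier results of these data known. Genes given in full were the most highly expressed members of each functional class and those called. Floors bound the count of a liver group at 0, take the spleen counts as they are and leave out the spread between libraries. Standard errors come from the quasi-likelihood fit, which includes that spread. Figures were drawn with matplotlib 3.10.9. Some marker genes are not reported here.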

Additional observations from a re-analysis of the deposited data

Results flagged for a closer look

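Within a group of 4 or 5 libraries, 1 library stood far from the others in 7 of the 34 groups of values tested, where chance alone flags about 1 in 20. Top2a was at 0.631 normalized CPM in 24 h replicate 1 and 1.24 in 72 h replicate 3, where the other libraries of the group were at 0. The first of these was 1 count and the second 4 counts. Where all other libraries are at 0 any read is flagged, so the rate of 1 in 20 does not hold for such genes. Pcna was at 2.52 in 24 h replicate 1, with the other 24 h libraries at 0, and at 2.48 in 72 h replicate 3. Cdk6 was low in 24 h replicate 1, at 0.631. Cdk4 was high in 72 h replicate 3, at 42.7, and Mcm7 in 72 h replicate 2, at 15.9. The 2 libraries named for 72 h were those with few unaligned reads.

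Cdk4 was flagged because its change against spleen differed between the liver groups, by -1.71 on the log2 scale (72 h minus 24 h, edgeR adjusted p = 0.0116). The spleens cancel in this difference, so it is the comparison of 72 h with 24 h liver given above and no further result. In the summary rows that the comparisons do not use, 24 h replicate 4 held 147308 reads that were ambiguous between genes, against 14835 to 19906 in the spleens.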

How the results depend on the processing

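The counts of called members moved with the setting. At 24 h, 5 members were called by DESeq2, by edgeR with no filter on low counts and by edgeR without 72 h replicates 2 and 3 (3 in the report). Of all genes tested in these fits, 12.6%, 7.31% and 10.6% were called. At 72 h there was 1 with the filterByExpr filter, which kept 15 members, 1 with the replicate block and 1 without 72 h replicates 2 and 3 (3 in the report). The shares of all genes called in these fits were 7.77%, 7% and 2.38%. DESeq2 gave no adjusted p for Cenpf. Between the liver groups there were 3 by DESeq2, 2 with no filter and 2 without 72 h replicates 2 and 3. There were 0 among genes with no opposite-strand exon, a fit that leaves Cdk4 out. The shares of all genes called in these fits were 7.9%, 4.11%, 1.63% and 1.91%. With each library left out, members called ranged from 1 to 5 at 24 h, 0 to 4 at 72 h and 0 to 2 between the liver groups. All genes called ranged from 575 to 1320, 314 to 835 and 182 to 796. Restricting to genes with no opposite-strand exon gave 552, 360 and 143 genes called. Without 72 h replicates 2 and 3 it was 287 at 72 h and 197 between the liver groups, where DESeq2 called 986 (1218, 666 and 561 by edgeR on all libraries and tested genes). Upper-quartile scaling changed the split of the last from 206 higher and 355 lower to 157 and 457.

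The mean summed level in spleen, 24 h and 72 h was 371, 413 and 328 normalized CPM without Mki67. Over genes with no opposite-strand exon it was 1062 at 24 h and 1232 at 72 h, and with Mki67 also left out, chosen after seeing the data, 82.3, 26.7 and 46.5. With no TMM factor the 24 h mean was 1147 CPM. Leaving out each library gave 1067 to 1684 in spleen, 1414 to 1566 at 24 h and 1422 to 1571 at 72 h.

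The sign for Mki67 at 24 h turned under limma-voom (0.024) and among genes with no opposite-strand exon (0.025). With each library left out it ranged from -0.39 to 0.59 at 24 h and from -0.19 to 0.78 at 72 h. The cause of these changes was not tested.

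The replicate numbers were shared between groups, but correlations of same-numbered libraries over 10 pairs ran from -0.116 to 0.130, so the numbers were not taken as pairs. With the replicate block, members called were Cdk4, Aurka and Aurkb at 24 h (3), Aurkb at 72 h (1) and Cdk4 between the liver groups (1). Of all tested genes, 10.4%, 7% and 4.8% were called with that block.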
